A study of Homo sapiens with 52 samples.

Results

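The 50 genes of the sarcomere and of muscle contraction examined here were followed through RNA-seq of fusion-positive rhabdomyosarcoma cells (FP-RMS, a tumour of the skeletal muscle lineage that carries the PAX3-FOXO1 fusion) treated with small molecules against chromatin proteins. The members were chosen by name, and all 50 were found among the 27043 genes listed in each of the 52 samples. In the screen, 20 compounds were each given for 6 h at a high and at a low dose, 10 times apart (10 and 1 µM, or 5 and 0.5 µM for LAQ824, Cpd50 and GSKJ4), beside DMSO at 0.2% and at 0.1%, each with 2 replicate samples on different flow cells. The HDAC inhibitor N1302 (1 µM, 6 h, with its own DMSO at 0.1%) and the HDAC1/2/3 inhibitor entinostat (1 µM, 1, 6 and 24 h, with DMSO at 0.1% at each time) had 1 sample per condition. All samples are of established FP-RMS lines in the same medium. The screen samples carry RH41 in their titles and RH4 in their cell line label, whereas N1302, entinostat and their controls carry RH4 in both, so these experiments were not pooled.

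Sarcomeres are the repeating contractile units of striated muscle. Myosin heavy and light chains form the thick filament, actin with tropomyosin and the troponins T, I and C forms the thin filament, titin and nebulin act as molecular rulers, and the Z-disc and M-band hold the filaments in register. Developing muscle first uses embryonic and fetal forms (myosin heavy chains MYH3 and MYH8, light chain MYL4, cardiac alpha-actin ACTC1, cardiac troponin T TNNT2) and later replaces them by adult fast or slow forms such as MYH1, MYH2, MYL1 and ACTA1. Rhabdomyosarcoma cells keep part of this muscle program, and desmin and MYOG are used in its diagnosis.

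The members covered a wide range of levels in DMSO. Levels are given as TPM (transcript abundance corrected for gene length and for depth) as deposited, and DMSO levels as mean ± SD over the 2 concentrations. TNNT1, the slow troponin T, was highest at 1465 ± 27.3 TPM, followed by tropomyosin TPM2 at 1017 ± 2.07, ACTC1 at 592 ± 7.48, the intermediate filament protein DES at 424 ± 14.5 and the light chain MYL6B at 421 ± 7.09; DES and MYL6B did not differ beyond this spread. These 5 genes held 71.7% of the members' summed TPM. At the other end, ACTA1 was at 1.57 ± 0.034 TPM, CKM (muscle creatine kinase) at 0.507 ± 0.037, MYH2 at 0.245 ± 0.053 and MYH1 at 0.058 ± 0.019, and MYL2 and MYL3 were listed at 0 in all 4 DMSO samples. Both developmental heavy chains were themselves low, MYH3 at 5.09 ± 0.55 TPM and MYH8 at 4.77 ± 0.55. In all, 11 members were above 100 TPM, 24 lay between 1 and 100 and 15 were below 1. Of 10 tumour and lineage markers, MYOD1 (at least 48.5 TPM in any of the 52 samples), MYOG (32.2), DES (188), FGFR4 (389) and CDH15 (66.0) stayed high throughout. MYCN was as low as 8.10 TPM, OLIG2 4.43, CHRNG 3.97, MYH3 2.24 and TFAP2B 0.468, although in DMSO TFAP2B was at least 10.8. In bulk samples, fewer cells of a type and less RNA per cell cannot be told apart.

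A test was possible for 44 members, which reached 1 TPM in at least 2 of the 52 samples. MYL2, MYL3, MYH7, MYBPC1, ACTN3 and UNC45B did not. Of the 44, MYH1 and MYH2 stayed below 1 TPM in every screen sample and passed only through the RH4-titled samples. Each compound's 2 doses were compared with the 2 DMSO concentrations on the log2(TPM+1) scale with limma, a linear model with moderated variances fitted across 16359 genes. A member was called when its Benjamini-Hochberg adjusted p was below 0.05 and the change was at least 2-fold; all comparisons with DMSO share the same controls. The scale understates changes of low genes. Sequencing depth ran from 8244088 to 59425992 reads per sample, estimated from the steps of the values. The screen ran on 4 flow cells: DMSO lay on 2 of them, with LAQ824 and MC1568 on one and Cpd50 and GSKJ4 on the other. The 14 compounds of the shallowest flow cell (median 14817940 reads), among them trametinib, WT161, Merck60, bromosporin and SGC-CBP30, had no DMSO there, so for them treatment and flow cell cannot be told apart in the comparison with DMSO. Between the DMSO concentrations no member was called (log2 differences from -0.27 to 0.27), with 0 of 44 members at an unadjusted p below 0.05 and 0.0122% of all genes called. Only 95 of the 16359 genes had an unadjusted p below 0.05 by limma. The compounds' dose differences enter the error, so this test was conservative and says little about whether the controls agree.

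Averaged over the 50 members, the level moved in both directions. The mean log2(TPM+1) was between 3.53 and 3.63 in the 4 DMSO samples. It was highest with trametinib, an inhibitor of the kinases MEK1 and MEK2, at 4.03 at both doses, and lowest with the CREBBP/EP300 bromodomain inhibitor SGC-CBP30 (2.93 at the high and 3.24 at the low dose), the bromodomain inhibitor bromosporin (3.11 and 3.15) and the HDAC inhibitor LAQ824 (3.32 and 3.32). All of these lie outside the DMSO range, as do MC1568 (3.75 and 3.70) and WT161 (3.41 and 3.43). So do compounds with no called member, for example Merck60 (3.85 and 3.66), GSKJ4 (3.74 and 3.71), PFI-3 (3.46 and 3.46) and UNC1999 (3.42 and 3.47). A value outside the range of the 4 DMSO samples was thus not particular to compounds with called members. The members' share of all TPM was 0.54% to 0.56% in DMSO, 0.82% and 0.81% with trametinib, and 0.38% at both LAQ824 doses.

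**Figure D1:**
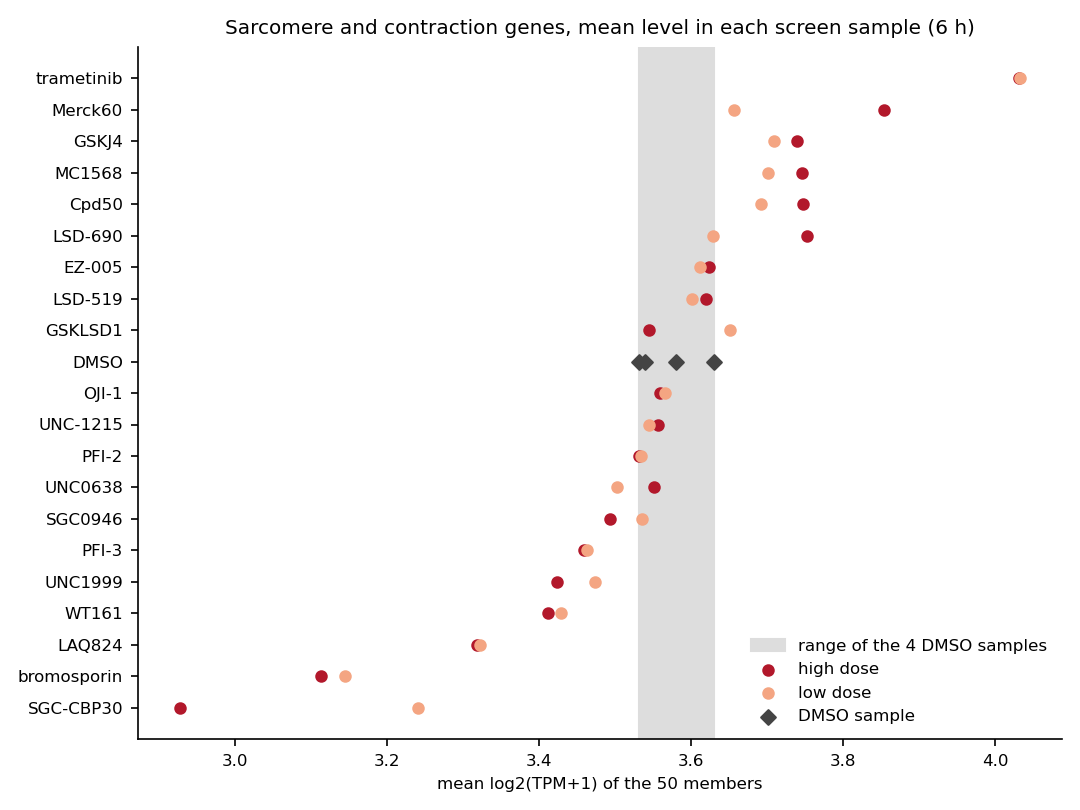
Mean log2(TPM+1) of the 50 members (x axis) in each of the 44 screen samples, by compound (y axis, ordered by mean); red points are high doses, light points low doses, diamonds the 4 DMSO samples and the grey band their range. Both trametinib samples lie at 4.03, right of all others, and SGC-CBP30, bromosporin and LAQ824 lie left of the band at both doses.

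ACTC1, CAV3, MYOZ2 and SMYD1 recur in the comparisons that follow. ACTC1 is the actin of embryonic skeletal and of heart muscle, CAV3 the muscle caveolin of the surface membrane, MYOZ2 a calcineurin-binding Z-disc protein, and SMYD1 a muscle methyltransferase needed for myofibril assembly. In hg19, the build of the files, ACTC1 spans chr15:35080297-35087927, CAV3 chr3:8775486-8788451, MYOZ2 chr4:120056939-120108944 and SMYD1 chr2:88367299-88412902. The 250 bases before the transcription start of each are shown because all 4 genes were called lower with LAQ824 and higher with trametinib than with WT161. The sequences come from RefSeq on GRCh38.p14 and are written 5′ to 3′ on the gene's strand, with each E-box CANNTG, the motif read by MYOD1 and MYOG, in capitals. The windows are chr15:34795550-34795799 (minus strand), chr3:8733552-8733801, chr4:119135582-119135831 and chr2:88067575-88067824 (plus strand).
ACTC1: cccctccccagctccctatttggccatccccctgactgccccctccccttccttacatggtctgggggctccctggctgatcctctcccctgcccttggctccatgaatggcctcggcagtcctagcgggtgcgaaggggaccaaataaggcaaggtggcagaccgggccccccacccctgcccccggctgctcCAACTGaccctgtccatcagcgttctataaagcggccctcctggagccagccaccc
CAV3: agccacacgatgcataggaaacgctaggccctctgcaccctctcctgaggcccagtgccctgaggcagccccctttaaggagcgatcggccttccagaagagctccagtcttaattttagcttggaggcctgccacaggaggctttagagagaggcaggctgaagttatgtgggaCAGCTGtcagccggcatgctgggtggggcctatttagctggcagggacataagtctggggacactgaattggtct
MYOZ2: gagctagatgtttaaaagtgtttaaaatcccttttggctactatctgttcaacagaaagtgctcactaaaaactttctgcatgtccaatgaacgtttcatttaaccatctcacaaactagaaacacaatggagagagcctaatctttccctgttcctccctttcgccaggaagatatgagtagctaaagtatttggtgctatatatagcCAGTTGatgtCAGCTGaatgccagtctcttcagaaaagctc
SMYD1: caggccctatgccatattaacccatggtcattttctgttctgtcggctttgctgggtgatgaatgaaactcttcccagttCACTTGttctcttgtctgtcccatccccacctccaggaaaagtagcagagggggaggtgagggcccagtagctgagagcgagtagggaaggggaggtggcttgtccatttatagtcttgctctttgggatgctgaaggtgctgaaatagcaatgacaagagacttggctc
An E-box was found in the windows of 23 of the 30 members that the RefSeq table holds (76.7%), against 61.8% of all 35116 windows of this length. A MEF2 site was found on either strand in 8 of 30 (26.7%, among them CAV3, MYOZ2, KLHL41, TTN and CASQ2, against 2.8%), and a CArG box, the motif of serum response factor, in 4 of 30 (13.3%: ACTC1, ACTA1, MYOM1 and LDB3, against 1.16%). These are letter matches in a window, not binding sites.

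LAQ824 gave the largest mean falls in the screen for ACTC1 and CAV3; at the high dose alone, CAV3 was slightly lower with bromosporin (12.4 TPM). Of the 44 members, 6 fell and 2 rose; over all genes 11.6% fell and 13.7% rose, so the members' count of falls was near the background and their count of rises below it. ACTC1 stood at 74.2 TPM at the high and 84.0 at the low dose, against 585 to 600 in the 4 DMSO samples. It fell 7.49-fold (log2 change -2.89 ± 0.29 (SE), adjusted p = 3.57e-08 by limma). CAV3 stood at 13.9 and 12.1 TPM against 124 to 137, a fall of 10.0-fold (-3.23 ± 0.40, adjusted p = 4.85e-07). For each of these genes, 18 compounds of the screen lay below the shared DMSO and 2 above. The median change over the compounds was -0.48 for ACTC1 and -0.36 for CAV3, so a value below DMSO was not particular to LAQ824.

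The other members lowered by LAQ824 were MYOZ2 (4.80-fold, log2 change -2.07 ± 0.32), MYBPH, a myosin-binding protein (3.65-fold, -1.42 ± 0.33), SMYD1 (3.39-fold, -1.33 ± 0.38) and SGCA, alpha-sarcoglycan of the dystrophin complex (2.13-fold, -1.08 ± 0.14). Their values at the 2 doses were close to each other, for example 5.77 and 4.78 TPM for MYOZ2 against 22.5 to 29.4 in DMSO. PYGM, muscle glycogen phosphorylase, rose to 5.18 and 4.60 TPM from at most 1.98 in DMSO (1.11 ± 0.26, adjusted p = 0.000958), and ACTN2, the Z-disc alpha-actinin, to 4.04 and 3.89 TPM from at most 1.502 (1.11 ± 0.29, adjusted p = 0.00258). Neither entered the test when only genes with a mean of at least 5 TPM were kept. The median change of the 44 was -0.18 on the log2 scale, against 0.06 over all genes.

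Among the embryonic and fetal forms, the 5 members responded unequally to LAQ824. TNNT2, at 173 and 181 TPM against 333 to 363, and MYL4, at 93.4 and 95.2 against 166 to 196, passed the adjusted p but not the 2-fold limit (-0.97 ± 0.12 and -0.92 ± 0.13). MYH8 changed by -0.86 ± 0.24 (2.04 and 2.30 TPM against 4.34 to 5.22) and was also short of 2-fold on the log2(TPM+1) scale. MYH3 lay above DMSO at both doses (6.97 and 8.24 TPM against 4.46 to 5.54, 0.50 ± 0.21, adjusted p = 0.0452). MYH3 therefore made up 76.0% and 77.2% of the summed TPM of MYH1, MYH2, MYH3, MYH7 and MYH8, against 48.7% to 51.3% in DMSO.

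No adult fast form passed both limits with LAQ824 (0 of 10 tested, where 11.6% of all genes fell and 13.7% rose). The medians of the fast and the developmental forms were -0.14 and -0.92. The 10 are MYH1, MYH2, MYL1, MYLPF, TNNT3, TNNI2, TNNC2, MYBPC2, MYOZ1 and ATP2A1, so ACTA1 and CKM are not counted. MYH1 and MYH2, below 1 TPM in every screen sample, and MYOZ1, at most 0.619 TPM in DMSO, could not be called lower on this scale. The absence of falls among the 10 was thus partly fixed in advance. Their values, -0.05 for MYH1, -0.22 for MYH2 and -0.35 for MYOZ1, lie on both sides of the fast median. TNNC2, the fast troponin C, was at 12.9 TPM at both doses against 6.14 to 7.19 (0.84 ± 0.32, adjusted p = 0.0329), while TNNI2, the fast troponin I, was at 7.62 and 9.54 against 13.4 to 16.5 (-0.75 ± 0.24, adjusted p = 0.0123). MYL1, ACTA1 and CKM lay above the DMSO range at both doses, with adjusted p of 0.201, 0.251 and 0.111. The share of MYL4 in MYL1 and MYL4 was 91.5% and 90.1%, against 96.0% to 97.1% in DMSO, and ACTC1 still held 96.4% and 97.2% of the 2 alpha-actins.

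WT161, labelled as an HDAC6 inhibitor, lowered 5 of 44 members and raised none, where 5.04% of all genes fell and 5.34% rose. With WT161 and DMSO alone in the fit, none of the 5 kept its call (limma). The 5 were CAV3 (-1.59 ± 0.40, adjusted p = 0.00349), MYOZ2 (-1.30 ± 0.32), ACTC1 (-1.25 ± 0.29), TNNI2 (-1.04 ± 0.24) and SGCA (-1.03 ± 0.14). SGCA was close at both doses, and the other 4 were lower at the high dose: ACTC1 was at 176 and 351 TPM, CAV3 at 26.6 and 67.8, MYOZ2 at 6.95 and 13.2, TNNI2 at 5.57 and 8.15. SGCA was at 84.9 and 87.0 TPM against 170 to 188. Without the high dose SGCA was the only one of them still called. With 8 compounds of its own flow cell as the reference (the methylation-class compounds and PFI-3), the called members were CAV3, MYOZ2 and SMYD1. ACTC1 then changed by -0.87 and SGCA by -0.71. The reference includes UNC0638, with which SMYD1 was called higher than in DMSO (1.17) and MYOZ2 had its highest mean change in the screen (0.89).

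MC1568, labelled against HDAC4 and HDAC5, had 2 called members. ACTC1 fell (243 and 330 TPM, -1.06 ± 0.29, adjusted p = 0.00966) and ACTN2 rose (4.92 and 3.28 TPM, 1.13 ± 0.29, adjusted p = 0.00727), where 0.0306% of all genes fell and 6.84% rose. Both calls were lost without the high dose. With the methylation-class compounds and PFI-3, 12 in total, ACTC1 also lay below DMSO (-0.75 to -0.05). TNNT3, the fast troponin T (12.0 and 9.37 TPM against 4.84 to 5.57, 0.93 ± 0.24), MYBPC2, the fast myosin-binding protein C (24.1 and 17.4 against 9.22 to 10.8, 0.96 ± 0.23), and RYR1, the calcium release channel (71.1 and 59.8 against 38.3 to 39.5, 0.74 ± 0.19), passed the adjusted p short of 2-fold. The members' median change, 0.24, was close to that of all genes, 0.26.

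**Figure D2:**
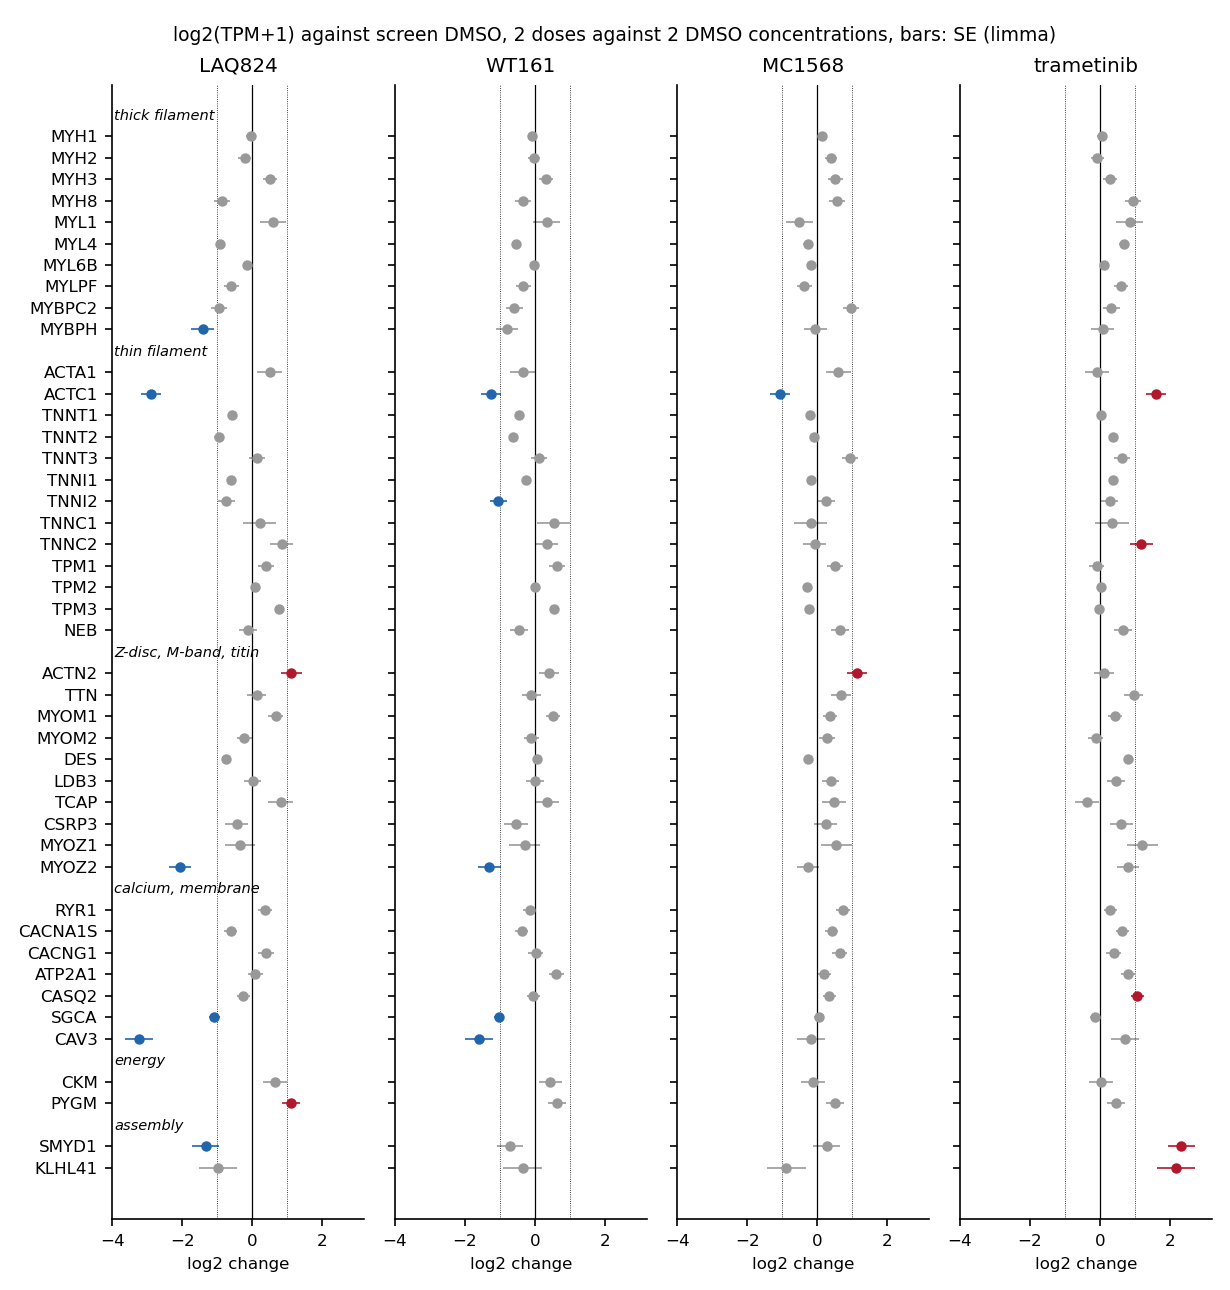
Log2 change of the 44 tested members against DMSO (x axis; bars are ± SE from limma; 2 doses against 2 DMSO concentrations) for LAQ824, WT161, MC1568 and trametinib, grouped by role; blue points were called lower, red higher, grey neither, and dotted lines mark 2-fold. ACTC1 is called in all 4 panels, lower in the first 3 and higher with trametinib.

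One pair within a flow cell set WT161 against Merck60, labelled against HDAC1 and HDAC2, at the same 10 and 1 µM. With WT161, 7 of 44 members were lower (5.44% of all genes were) and 1 was higher (4.84%). MYOZ2 was at 6.95 and 13.2 TPM with WT161 and at 39.3 and 30.0 with Merck60 (difference -1.73 ± 0.32, adjusted p = 0.000287). ACTC1 was at 176 and 351 TPM against 780 and 587 (-1.44 ± 0.29), and MYH8 at 2.99 and 4.20 against 11.3 and 7.66 (-1.18 ± 0.24). In all 3, every WT161 value was below every Merck60 value. CAV3 (-1.44 ± 0.40), MYBPH (-1.40 ± 0.33), SMYD1 (-1.18 ± 0.38) and TNNI2 (-1.09 ± 0.24) were lower too, and TCAP, the titin cap protein, was higher (1.06 ± 0.34). The 7 fell to 2 without the high dose of WT161 and to 3 without that of Merck60. Against DMSO, Merck60 had no called member, and 0.0367% of all genes were called.

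LAQ824 and MC1568, sequenced on the same flow cell, were given at different doses (5 and 0.5 µM, 10 and 1 µM), so their values stand side by side. With LAQ824, 9 of 44 members were lower (17.9% of all genes were) and 1 was higher (6.92%). CAV3 was at 13.9 and 12.1 TPM with LAQ824 and at 106 and 124 with MC1568, and MYBPC2 at 4.32 and 5.07 against 24.1 and 17.4. MYL1, the fast alkali light chain, was the member that was higher, at 8.62 and 10.5 TPM against 4.63 and 3.26.

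Trametinib moved the members the other way. In all, 5 of 44 rose and none fell, against 0.532% and 0.611% of all genes, and 37 of 44 changes were above 0, with a median of 0.41 (all genes 0.01). Against the same DMSO, 36 of 44 changes were above 0 with GSKJ4 (median 0.17) and 34 with Merck60 (0.20), so the count of signs was not particular to trametinib. SMYD1 was at 36.3 and 31.7 TPM against 5.01 to 6.93 in DMSO, a rise of 5.66-fold (2.32 ± 0.38, adjusted p = 0.000617). ACTC1 was at 1749 and 1869 TPM, 3.05-fold above DMSO (1.61 ± 0.29, adjusted p = 0.00151). KLHL41, a Kelch protein that stabilises nebulin, was at 713 and 694 TPM against 154 to 161, a rise of 4.50-fold (2.16 ± 0.55, adjusted p = 0.0299). CASQ2, the calcium-binding calsequestrin of the sarcoplasmic reticulum (27.0 and 24.9 TPM against 10.4 to 12.9, 1.07 ± 0.19), and TNNC2 (17.7 and 15.7 against 6.14 to 7.19, 1.19 ± 0.32, adjusted p = 0.0476) completed the list. KLHL41 and TNNC2 lost the call when either dose was left out.

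Short of 2-fold but past the adjusted p with trametinib were DES (768 and 720 TPM against 413 to 443, 0.81 ± 0.10), MYL4 (297 and 282 against 166 to 196, 0.69 ± 0.13), MYH8 (8.97 and 11.3 against 4.34 to 5.22, 0.94 ± 0.24) and ATP2A1, the fast calcium pump (91.2 and 86.5 against 45.1 to 56.9, 0.80 ± 0.21). All 5 embryonic and fetal forms had values above 0, with a median of 0.69, and 9 of 10 adult fast forms, with a median of 0.61. The 10 again include MYH1 and MYH2, both below 1 TPM in the screen. Against the same DMSO, Merck60 had 5 of 5 and 10 of 10 of these forms above 0, with lower medians (0.21 and 0.30). GSKJ4 had 3 of 5 and 10 of 10 (0.17 and 0.28). With trametinib, TNNT1 (1540 and 1480 TPM), TPM2 (1037 and 1021) and ACTA1 (2.19 and 0.818) were at 0.04, 0.02 and -0.09. MYH8 made up 57.1% and 61.4% of the heavy chains, against 45.8% to 47.5% in DMSO. With the same 8 compounds of its own flow cell as the reference, 8 members were called higher: ACTC1, KLHL41, SMYD1 and TNNC2 again, with MYL1, DES, ATP2A1 and CAV3, and without CASQ2.

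**Figure D3:**
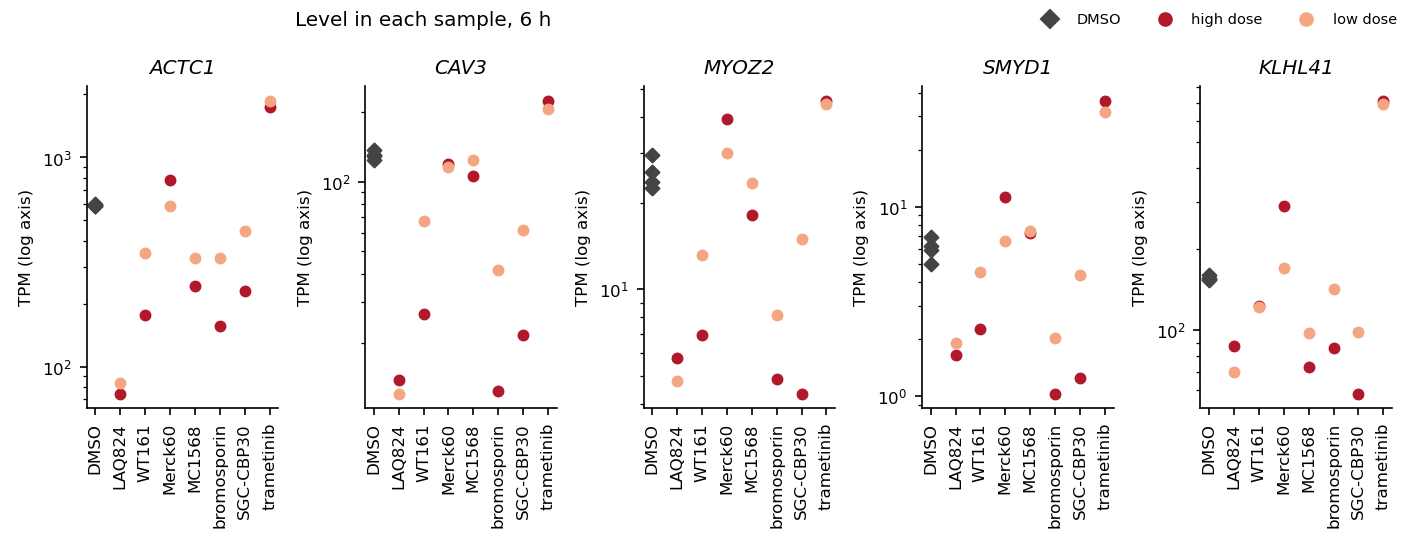
TPM (log axis) of ACTC1, CAV3, MYOZ2, SMYD1 and KLHL41 in each sample of DMSO (diamonds) and of 7 compounds (red, high dose; light, low dose), all at 6 h. For ACTC1, SMYD1 and KLHL41 both trametinib points lie above all others shown, for example 1749 and 1869 TPM for ACTC1, whose LAQ824 points, 74.2 and 84.0 TPM, are the lowest.

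Set directly against WT161, at the same doses and on the same flow cell, trametinib had 15 of 44 members higher and none lower (6.13% and 5.94% of all genes). SMYD1 was higher by 3.04 ± 0.38 on the log2 scale, ACTC1 by 2.85 ± 0.29 (adjusted p = 2.15e-07), KLHL41 by 2.52 ± 0.55, CAV3 by 2.31 ± 0.40 and MYOZ2 by 2.11 ± 0.32. Also higher were MYOZ1, the fast counterpart of MYOZ2, TNNI2 (1.32 ± 0.24), MYH8 (1.28 ± 0.24), MYL4 (1.22 ± 0.13) and CSRP3, a Z-disc LIM protein (1.15 ± 0.33). Of the embryonic and fetal forms, 4 of 5 were among the 15 (ACTC1, MYH8, MYL4 and TNNT2, 1.00 ± 0.12), and MYH3 differed by -0.02. Of the adult fast forms 2 of 10 were (TNNI2 and MYOZ1), with MYH1 and MYH2, both below 1 TPM, among the 10. The count was 12 to 16 when any single sample of the 2 compounds was left out.

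Bromosporin and SGC-CBP30 lowered members and raised none. With bromosporin 8 of 44 fell (9.02% of all genes did, and 3.96% rose): CAV3 (12.4 and 41.6 TPM, -2.46 ± 0.40), MYOZ2 (4.87 and 8.15, -1.84 ± 0.32), SMYD1 (-1.49 ± 0.38), ACTC1 (156 and 331, -1.38 ± 0.29), TNNI2, MYBPH, the tropomyosin TPM1 (27.5 and 41.4 against 72.8 to 77.5, -1.13 ± 0.22) and MYBPC2. With SGC-CBP30 4 of 44 fell, where 1.19% of all genes fell and 0.0428% rose: CAV3 (21.6 and 61.9 TPM, -1.80 ± 0.40), MYOZ2 (4.33 and 15.0, -1.51 ± 0.32), MYBPH (-1.29 ± 0.33) and TTN, the gene of titin (2.37 and 3.72 against 7.53 to 8.03, -1.13 ± 0.28). All of the SGC-CBP30 values given here were lower at the high dose. Its changes lay below 0 for 41 of 44 members, with a median of -0.50 against 0.03 over all genes; both compounds share the DMSO controls and were on a flow cell without DMSO.

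The other 12 compounds had no called member. The share of all genes called, in either direction, was 0.00611% for GSKJ4, 0.0306% for EZ-005, PFI-3 and UNC1999, 0.0367% for Merck60, 0.0428% for UNC-1215, 0.0734% for OJI-1, 0.0917% for SGC0946, 0.128% for PFI-2, 0.293% for LSD-519, 0.532% for LSD-690 and 0.96% for GSKLSD1. UNC0638, labelled against the methyltransferase KMT1C, raised SMYD1 (25.9 and 8.11 TPM, 1.17 ± 0.38, adjusted p = 0.0449; 0.782% of all genes rose and 2.46% fell). It was higher at the high dose, where KLHL41 (not called, adjusted p = 0.149) stood at 783 TPM, above both trametinib samples, against 162 at the low dose. MYH3 made up 25.4% of the heavy chains at that dose, the lowest share in the screen. KLHL41 also had more reads at the high than at the low dose of EZ-005 (4918 and 1508), UNC1999 (4510 and 1048) and LSD-690 (2537 and 1357). These reads are not corrected for depth. Cpd50 raised TNNI2 (53.1 and 43.4 TPM, 1.62 ± 0.24, adjusted p = 5.78e-05; 2.01% of all genes rose and 0.11% fell), so that the slow form TNNI1 made up 72.2% of TNNI1 and TNNI2 at the high dose, against 86.0% to 87.5% in DMSO.

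**Figure D4:**
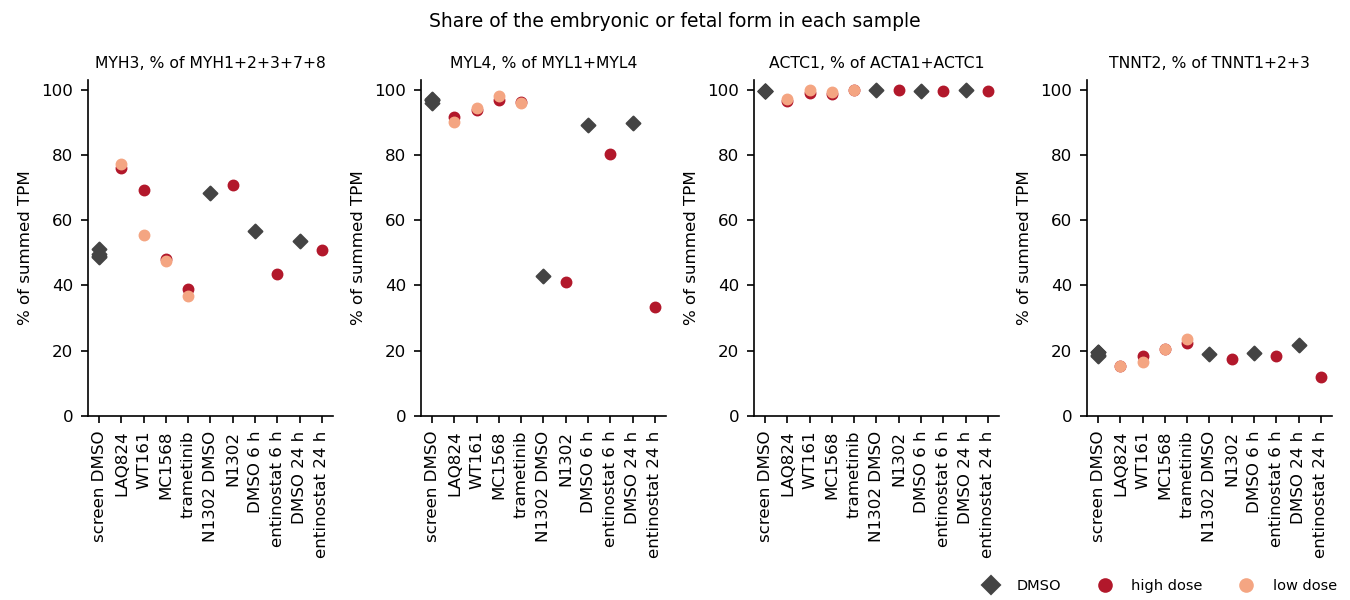
Share of MYH3, MYL4, ACTC1 and TNNT2 in the summed TPM of their families (y axis, percent) in each sample of DMSO (diamonds) and of the HDAC inhibitors and trametinib (red, high or only dose; light, low dose). MYL4 holds 96.0% to 97.1% in screen DMSO. After 24 h of entinostat it holds 33.5%, against 89.96% in the 24 h control, and it holds 43.0% in the DMSO control of N1302. ACTC1 stays above 96% of the alpha-actins in all samples shown.

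The RH4-titled controls differed from each other as well. At 6 h in 0.1% DMSO, the control of N1302 had MYL1 at 200 TPM and the control of entinostat at 18.9, and the slow troponin C TNNC1 stood at 53.3 and 5.23. In the control of N1302 11 of 44 members were at least 2-fold higher, where 3.55% of all genes were, and 2 were lower (RYR1 and ATP2A1), where 10.5% of all genes were. With no replicate in either experiment, a difference between cultures and one between library runs cannot be told apart. Within the time course, no member changed 2-fold between the 1 h and the 24 h control. Over all genes 1.33% did, so the members were near the background here. N1302 and entinostat are therefore compared with their own controls only, as differences of log2(TPM+1) without a test.

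With N1302, 10 of 44 members were at least 2-fold lower and none higher; over all genes 19.3% were lower and 11.6% higher. CAV3 was at 14.2 TPM against 199 (14.0-fold lower), SMYD1 at 1.44 against 8.94, KLHL41 at 114 against 459, ACTC1 at 399 against 1199, and MYOZ2 at 17.0 against 49.8. MYBPH, CSRP3, MYH3 (6.59 against 16.8 TPM), MYH2 (0.491 against 2.45) and CASQ2 were the others. MYL1 (195 against 200), TNNC1 (55.2 against 53.3), TNNT1 (1420 against 1343) and TNNT2 (302 against 313) were close to their control. Median-ratio scaling moved the treated sample against its control by -0.33 (log2), and under it 8 members were lower and 2 higher. With the mean of both RH4-titled 6 h controls as the reference, ACTC1, MYH3, MYOZ2 and MYBPH were no longer 2-fold lower (-0.86, -0.73, -0.70 and -0.94). MYH2 and CASQ2 were no longer 2-fold lower either, whereas RYR1, ATP2A1 and MYH8 became so.

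Entinostat gave a sequence of changes in time. At 1 h no member was 2-fold changed (1.24% of all genes were). At 6 h 6 members were higher (5.13% of all genes were) and none lower (0.947%): MYBPH (34.2 against 9.88 TPM), MYBPC2 (31.6 against 9.94), MYL1 (53.1 against 18.9), TNNC2 (30.2 against 11.5), SMYD1 (21.9 against 8.67) and MYH8 (9.23 against 3.95). In all, 38 of 44 members lay above the control, with a median of 0.40 (all genes 0.02). ACTC1 (409 against 437) and CAV3 (92.0 against 83.1) were close to it. With both RH4-titled 6 h controls as the reference, MYL1 was below it (-0.22) and TNNC2 at 0.52.

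At 24 h 8 members were higher and 6 lower, against 16.4% and 6.06% of all genes. MYL1 stood at 191 TPM against 14.8 in DMSO, a log2 difference of 3.601, TPM1 at 210 against 48.4, TNNC2 at 48.2 against 12.7, MYBPC2 at 37.1 against 11.2, TNNC1 at 12.9 against 4.22 and CKM at 3.80 against 0.606. ACTN2 and MYOM1, an M-band protein, were also higher. ATP2A1 was at 13.3 TPM against 58.3, TNNT2 at 129 against 428, MYLPF, the fast regulatory light chain, at 26.4 against 79.2, TPM2 at 488 against 1224, TNNI2 at 17.7 against 39.7 and MYL6B at 278 against 558. Fast forms were thus on both sides, 3 of 10 higher and 3 lower, and MYL4 was at 33.5% of MYL1 and MYL4, against 89.96% in the control.

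**Figure D5:**
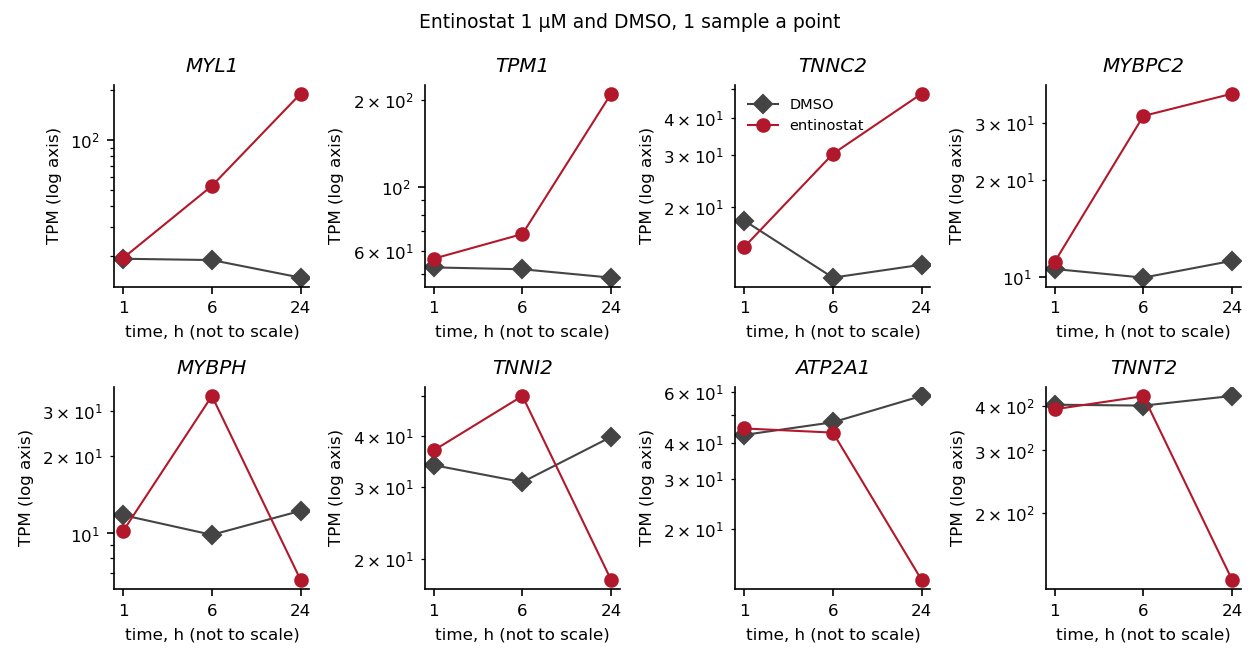
TPM (log axis) of 8 members in entinostat (circles) and DMSO (diamonds) at 1, 6 and 24 h (x axis, not to scale), 1 sample a point. MYL1 reaches 191 TPM at 24 h against 14.8 in DMSO, while ATP2A1 and TNNT2 are at 13.3 and 129 TPM against 58.3 and 428.

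Transcription factors of the muscle program were read in the same samples. LAQ824 lowered MYOD1 (71.0 and 75.0 TPM against 640 to 648, -3.12 ± 0.36, adjusted p = 2.54e-07), MYOG and MEF2C. With WT161 MYOD1 was at 106 and 372 TPM and MYOG at 70.8 and 254 (both called lower), and with bromosporin MYOD1, MYOG and MEF2C fell. With trametinib none of these 3 was called: MYOG was at 1287 and 1282 TPM against 572 to 587 (1.15 ± 0.46, adjusted p = 0.25), MEF2C at 99.9 and 117 against 49.0 to 55.9, and MYOD1 at 429 and 358. N1302 had MYOG at 32.2 TPM against 391 and MYOD1 at 48.5 against 248.8, and entinostat at 24 h had MYOG at 107 against 546 and MYOD1 at 113 against 367. At 6 h of entinostat, where 38 of 44 members lay above the control, MYOG was at 474 against 633 TPM and MYOD1 at 255 against 405. Their part in the members' changes was not tested.

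A further list of 51 sarcomere genes outside the set, 40 of them tested, was counted in the same fits. With trametinib 7 of 40 rose and none fell (0.532% and 0.611% of all genes), led by KLHL40, a relative of KLHL41 that also binds nebulin (2.52 ± 0.37, adjusted p = 0.000164), the Z-disc protein SYNPO2L (2.40 ± 0.39), the ubiquitin ligase TRIM54 (1.76 ± 0.26) and the actin nucleator LMOD3 (1.73 ± 0.26). With LAQ824 4 of 40 fell and 3 rose, shares of 10% and 7.5% that lie below the 11.6% and 13.7% of all genes. SYNPO2L fell (-2.18 ± 0.39), and the cardiac troponin I TNNI3 rose (4.07 ± 0.50, adjusted p = 4.74e-07). WT161 and N1302 also had TNNI3 above their controls (2.11 ± 0.50 with WT161, and 6.43 against 0.355 TPM with N1302, from 38 and 3 reads), and after 24 h of entinostat it stood at 13.9 against 0.919 TPM. SYNPO2L was lower with WT161, bromosporin and SGC-CBP30.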

How the data were processed

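RNA was extracted from treated FP-RMS cells, and libraries were sequenced in 52 samples. Per the study's methods, libraries were poly-A selected, and the authors aligned reads to hg19 with STAR, computed TPM with RSEM and deposited 1 table of TPM values per sample. For 23645 of 23645 genes above 0, each deposited TPM was a whole number of steps (tolerance 0.001 reads), which gave the reads per sample. Single genes may be off by a factor of 2, and such reads carry counting error only. Groups, doses and times came from the labels, and flow cells from the column headers.

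Values were analysed as log2(TPM+1) with limma 3.58.1 in R 4.3.3 (lmFit, eBayes with trend) over the 16359 genes with at least 1 TPM in 2 samples. The 44 screen samples formed 1 fit in which the 2 replicates of each DMSO concentration, which may or may not be separate cultures, were averaged (replicates differed by 2.15 and 2.17 times the counting noise, and the concentration-by-flow-cell difference was 1.35 times it). A compound's doses were its 2 samples, so dose effects enter the error; nothing shows that samples came from separate cultures, and p-values then measure only the spread between these samples. The procedure was tested on simulated data. N1302 and entinostat had no replicates, and 2-fold changes were listed. Figures were drawn with matplotlib in Python.

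Named were 18 members given throughout and, in each comparison, up to 10 called members per direction with the largest change. The members, lists and comparisons were chosen with earlier results of these data known. Myosin heavy chains and alpha-actins are near-identical in part, and reads could be split between them. Alternatives were another pseudocount (0.1), median-ratio scaling, other filters on low values, no fold threshold (1.5-fold without replicates), dose as a block, all DMSO samples kept apart, smaller fits, a reference within the flow cell and each sample left out. Chosen after seeing the data were limma-voom on the recovered reads and leaving out both replicates of a DMSO concentration.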

Additional observations from a re-analysis of the deposited data

Results flagged for a closer look

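With entinostat, 2 members lay on opposite sides of their control at 6 h and at 24 h, each by at least 1.5-fold at both times; the difference between the times was not tested, since each condition had 1 sample. MYBPH changed by 1.69 on the log2 scale at 6 h (34.2 against 9.88 TPM) and by -0.80 at 24 h (6.60 against 12.2), a difference of -2.49 between the times. TNNI2 changed by 0.68 at 6 h (50.1 against 30.8 TPM) and by -1.12 at 24 h (17.7 against 39.7), a difference of -1.81.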

How the results depend on the processing

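Each count of called members was recomputed under the alternatives; of 245 recomputed counts, 187 stayed within 1.5 times the reported one. Without the fold threshold the counts rose: LAQ824 16 lower and 6 higher, WT161 8 and 3, MC1568 3 and 5, trametinib 9 higher, WT161 against Merck60 17 and 3, trametinib against WT161 2 and 23, LAQ824 against MC1568 19 and 4. With a pseudocount of 0.1, MC1568 had 3 higher, LAQ824 against MC1568 2 higher, N1302 3 higher, entinostat 1 higher at 1 h and 13 at 6 h. Median-ratio scaling gave 2 higher for LAQ824 against MC1568 and 2 for N1302. No filter left 3 higher with trametinib, and a mean of at least 5 TPM left 0 higher with LAQ824 and with MC1568. With WT161 and DMSO alone in the fit 0 were lower, and with the reference of its flow cell 3; with the latter trametinib had 8 higher. Voom on reads gave 6 higher for LAQ824, 1 for WT161, 2 for MC1568, 8 for trametinib and 4 for LAQ824 against MC1568. At 1.5-fold, N1302 had 17 lower and 2 higher, entinostat 1 higher at 1 h, 15 higher and 1 lower at 6 h and 12 lower at 24 h. With both 6 h RH4-titled controls N1302 had 3 higher; there MYL1 turned to 1.63 with N1302 and to -0.22 with entinostat at 6 h. The cause of these differences was not tested.

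Leaving out single samples or a DMSO concentration gave 1 to 2 higher for LAQ824, 1 to 5 lower and 0 to 1 higher for WT161, 0 to 1 lower and 0 to 3 higher for MC1568, 2 to 5 higher for trametinib, 2 to 7 lower and 0 to 1 higher for WT161 against Merck60 and 1 to 2 higher for LAQ824 against MC1568. The lowest trametinib count, 2, came without both replicates of DMSO 0.2%, where KLHL41 (adjusted p = 0.211), TNNC2 and CASQ2 were not called. Of 822 recomputed values of called members 750 kept direction and call and 71 lost the call. The replicate number is shared by the DMSO samples only; samples with the same number deviated with a correlation of 0.0719, and with the replicate block the DMSO concentrations still differed in 0 members (94 genes at an unadjusted p below 0.05, against 95 without it). Low members such as CSRP3 or CKM rest on few reads, so small changes in them were not detectable at this depth.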

Other observations

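Contractile genes of smooth muscle and of non-muscle cells, 16 of 17 tested, were counted as well. After 24 h of entinostat 7 of them were at least 2-fold higher and none lower (1 sample per condition), where 16.4% of all genes were higher and 6.06% lower: calponin CNN1 at 31.1 against 1.54 TPM, transgelin TAGLN at 90.6 against 13.5, leiomodin LMOD1 at 8.36 against 0.156, the cytoplasmic actin ACTG1 at 9455 against 3010, the non-muscle myosin MYH9 at 462 against 175, and the light chains MYL12A and MYL12B. The further list of sarcomere genes also had more members higher than lower after 24 h of entinostat (10 of 40 and 3 of 40). With LAQ824 at 6 h 2 of 16 rose and 3 fell, where 13.7% of all genes rose and 11.6% fell, so these counts were near the background. LMOD1 rose (2.20 ± 0.36, adjusted p = 1.8e-05 by limma) and MYH9 rose (1.03 ± 0.18), while ACTN1, TAGLN and TPM4 fell (-1.37 ± 0.23, -1.10 ± 0.20 and -1.01 ± 0.20). With trametinib none of the 16 was called.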
